A study of Mus musculus with 8 samples.

Results

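The 33 genes described here are macrophage and myeloid genes, chosen by name as markers of resident, recruited and activated macrophages and of the wider myeloid lineage. All 33 had at least 1 probe set on the array, 51 probe sets in all, among 18193 genes and 45037 probe sets. Their messenger RNA was measured on Affymetrix mouse arrays, 1 array for each heart of a female mouse. Knock-out (KO) mice carried a conditional gene deletion under the MCK driver, muscle creatine kinase being a gene of heart and skeletal muscle, and wild-type (WT) mice were their littermates. The groups were KO and WT mice of 10 weeks and KO and WT mice of 4 weeks, 2 mice per group and 8 arrays in all. All mice of 1 age shared a litter, per the labels. The sources used here describe the hearts only as whole tissue. In each result, higher or lower, a change in the number of cells of a type and a change in RNA per cell therefore cannot be told apart.

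Macrophages are the main leukocytes of the healthy heart. In the mouse, resident cardiac macrophages are largely kept up within the tissue and carry scavenger receptors such as LYVE1, CD163 and the mannose receptor MRC1. Monocytes from the blood carry the receptor CCR2 and follow the chemokines CCL2 and CCL7, and in injured tissue macrophages can take on an activated, lipid-handling state marked by galectin-3 (Lgals3), GPNMB and TREM2. The lineage as a whole depends on the receptor CSF1R and on the transcription factor PU.1, the product of Spi1.

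Values are log2 intensities of the brightest probe set of a gene, so 1 unit is a doubling, and differences are KO minus WT with their standard error (SE). A gene was called higher or lower where its Benjamini-Hochberg adjusted p in limma, over all 18193 genes, was under 0.05. Levels of different genes are not set against each other, because probe sets differ in brightness for reasons other than RNA amount.

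In 10-week KO hearts 10 of the 33 genes were called higher and 0 lower, where 5.19% of all genes were called higher and 6.89% lower. The difference was positive for 32 and negative for 1, with a median of 0.47, against a median of 0.00 over all genes. Both KO arrays lay above both WT arrays for 24 of the 33, a pattern that 23.7% of all genes showed, and the arrays of the other 9 overlapped. The 10 called genes came from 6 of the 7 roles: general macrophage genes (Cd68, Mpeg1, Csf1r and Ctss), activated macrophage genes (Lgals3 and Gpnmb), and 1 each of the resident genes (Mrc1), the Fc receptor adaptors (Fcer1g), the C1q chains (C1qc) and the chemokines (Ccl7).

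**Figure D1:**
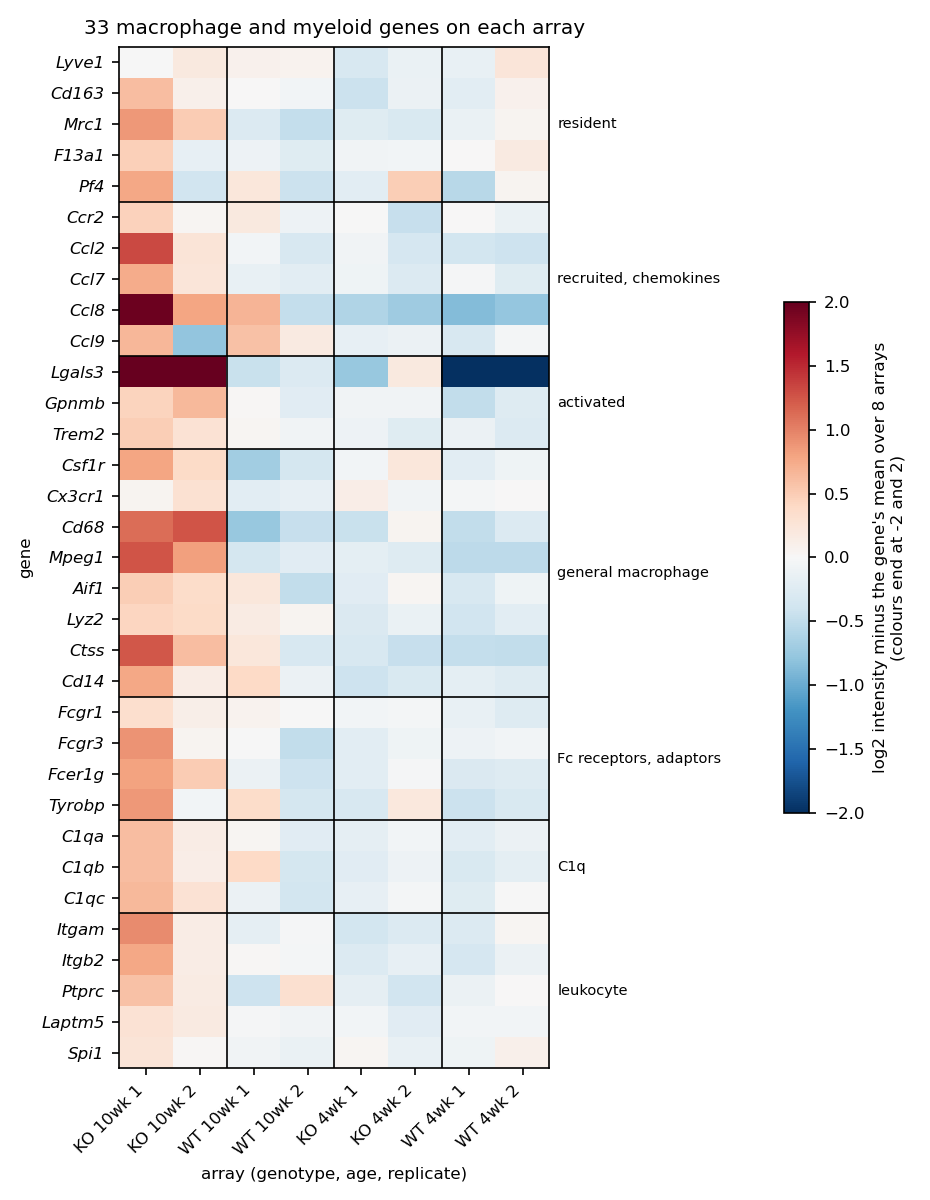
Level of each of the 33 genes on each of the 8 arrays, as log2 intensity minus the mean of that gene over all arrays, with genes down the page by role and arrays across by genotype, age and replicate. The mean over the 33 genes was 8.37 and 7.92 on the 10-week KO arrays, against 7.27 to 7.59 on the other 6, and replicate 1 was above replicate 2 for 29 of the 33 genes there.

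Lgals3 encodes galectin-3, a sugar-binding lectin that activated macrophages secrete and that other injured cells can also make. It read 11.15 and 11.01 in the 10-week KO hearts, against 7.69 and 7.86 in the WT hearts. The KO hearts were far above the WT hearts and close to each other, and the difference of 3.30 ± 0.26, or 9.87-fold, had a limma adjusted p of 0.0001003. Lgals3 had the largest difference of the 33 genes.

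Cd68, a lysosomal glycoprotein used to mark macrophages, read 8.34 and 8.47 in KO hearts against 6.46 and 6.76 in WT hearts, a 3.47-fold rise (1.80 ± 0.18, limma adjusted p = 0.000452). Mpeg1, which encodes the pore-forming protein perforin-2 of phagocytes, read 8.71 and 8.29 in KO hearts against 7.11 and 7.23 in WT hearts, a 2.52-fold rise (1.33 ± 0.15, limma adjusted p = 0.000771). In both genes the 2 KO hearts were more than a unit above either WT heart. Csf1r, the receptor for colony-stimulating factor 1, read 11.02 and 10.61 in KO hearts against 9.54 and 9.88 in WT hearts, 2.15-fold higher (1.11 ± 0.18, limma adjusted p = 0.00426). Its other 2 probe sets gave 0.94 and 0.79, so the 3 probe sets had the same direction. Ctss, the lysosomal protease cathepsin S, read 10.58 and 9.96 in KO hearts against 9.57 and 9.02 in WT hearts (0.98 ± 0.22, limma adjusted p = 0.0203).

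The other 4 general macrophage genes did not pass the test. Aif1, a cytoplasmic calcium-binding protein of macrophages also called IBA1, differed by 0.56 ± 0.22, and Cx3cr1, the fractalkine receptor, by 0.37 ± 0.13. Cd14, a co-receptor for bacterial lipopolysaccharide, differed by 0.32 ± 0.22. Lyz2, the lysozyme that marks many myeloid cells, read 10.99 and 10.94 in KO hearts against 10.73 and 10.62 in WT hearts, a small difference of 0.29 ± 0.13 in which the arrays did not overlap. The median over the 8 general genes was 0.77.

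Among the resident macrophage genes, 1 of 5 was called. Mrc1, the mannose receptor, read 9.70 and 9.35 in KO hearts against 8.55 and 8.36 in WT hearts, 2.09-fold higher (1.06 ± 0.15, limma adjusted p = 0.00217). Lyve1, a hyaluronan receptor of resident macrophages and lymphatic vessels, read 8.58 and 8.78 in KO hearts against 8.67 and 8.65 in WT hearts, so the groups overlapped and the difference was 0.02 ± 0.16. The same held for the clotting-factor subunit F13a1 (0.33 ± 0.19) and for the platelet and macrophage chemokine Pf4 (0.29 ± 0.39), whose arrays overlapped. Cd163, the haemoglobin scavenger receptor, read 8.48 and 7.96 in KO hearts against 7.87 and 7.81 in WT hearts, and its difference of 0.38 ± 0.19 did not pass either (limma adjusted p = 0.283). The median of the 5 was 0.33.

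Of the 3 activated genes 2 were called. Besides Lgals3, Gpnmb, a glycoprotein of lysosome-rich macrophages, read 6.11 and 6.31 in KO hearts against 5.68 and 5.43 in WT hearts (0.65 ± 0.14, limma adjusted p = 0.0165). A second, dim probe set of Gpnmb gave 0.01, and the mean of the 2 probe sets gave 0.33 with a limma adjusted p of 0.0914. Trem2, a lipid-sensing receptor, had 6.33 and 6.13 in KO hearts against 5.88 and 5.78 in WT hearts, a difference of 0.40 ± 0.13 that did not pass (limma adjusted p = 0.0849), and its second probe set gave -0.03.

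Of the 5 recruited genes, the chemokine Ccl7 was the 1 called, and the median was 0.66. Ccl7, a ligand of CCR2, read 6.24 and 5.74 in KO hearts against 5.36 and 5.30 in WT hearts (0.66 ± 0.17, limma adjusted p = 0.0366), and it was not called under 9 of 17 alternatives. Ccl2, another ligand of CCR2, read 7.39 and 6.32 in KO hearts against 6.0 and 5.74 in WT hearts. Ccl8, a further monocyte chemokine, read 8.69 and 7.51 in KO hearts against 7.40 and 6.25 in WT hearts. In both genes the KO hearts lay above the WT hearts and KO replicate 1 above replicate 2 by over a unit, and the differences of 0.98 ± 0.28 and 1.28 ± 0.40 did not pass (limma adjusted p = 0.0543 and 0.0717). Ccl9 was the 1 negative gene, with 9.04 and 7.60 in KO hearts against 8.98 and 8.56 in WT hearts (-0.44 ± 0.37).

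Ccr2 depended on its probe set. The brightest probe set read 7.86 and 7.45 in KO hearts against 7.60 and 7.31 in WT hearts, which overlapped, for a difference of 0.20 ± 0.19. The other 3 were dimmer, and in a fit on all 45037 probe sets, of which 3.69% were called higher, all 3 were called. The most different read 6.25 and 5.71 in KO hearts against 4.74 and 4.46 in WT hearts (1.38, limma adjusted p = 0.00172), and the other 2 gave 1.14 and 0.79. Which probe set reflects the transcript was not tested.

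**Figure D2:**
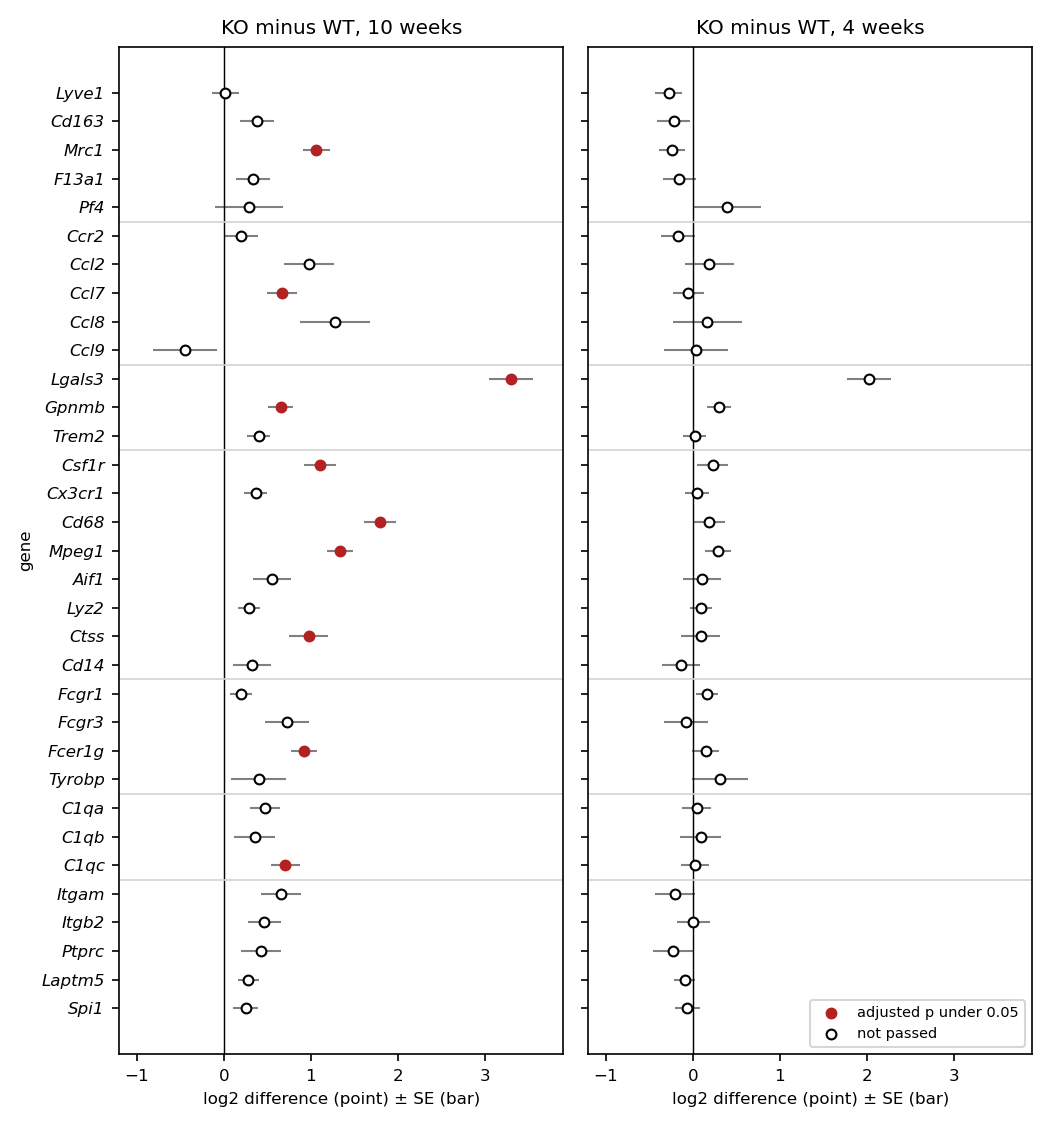
Difference KO minus WT of each of the 33 genes at 10 weeks (left) and at 4 weeks (right), as log2 with bars of 1 SE, filled where the limma adjusted p was under 0.05. At 10 weeks 10 genes are filled and 32 points lie right of 0, and at 4 weeks none is filled.

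Among the Fc receptors and their adaptors, Fcer1g, the signalling gamma chain of Fc receptors, read 8.73 and 8.44 in KO hearts against 7.81 and 7.51 in WT hearts (0.92 ± 0.15, limma adjusted p = 0.00449). Tyrobp, the adaptor also called DAP12 that TREM2 signals through, read 9.27 and 8.35 in KO hearts against 8.77 and 8.05 in WT hearts, which overlapped (0.40 ± 0.32). The immunoglobulin receptors Fcgr3 and Fcgr1 differed by 0.73 ± 0.25 and 0.20 ± 0.13 and did not pass. The other, dimmer probe set of Fcgr1 gave 0.71 ± 0.26 in the fit on all probe sets and did not pass either (limma adjusted p = 0.16). The 3 chains of complement C1q, which macrophages produce in tissue and which assemble together, differed by 0.71 ± 0.16 for C1qc (called, limma adjusted p = 0.0205), 0.47 ± 0.17 for C1qa and 0.35 ± 0.24 for C1qb. C1qa read 10.18 and 9.71 in KO hearts against 9.60 and 9.34 in WT hearts.

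None of the 5 leukocyte genes was called, with a median of 0.42. The integrin chains Itgam and Itgb2, which together form the complement receptor CR3, differed by 0.66 ± 0.23 and 0.47 ± 0.19. Ptprc, the phosphatase CD45 found on all leukocytes, differed by 0.42 ± 0.23, Laptm5, a lysosomal membrane protein of blood cells, by 0.28 ± 0.12, and Spi1 by 0.25 ± 0.14. Spi1 read 6.30 and 6.07 in KO hearts against 5.97 and 5.91 in WT hearts.

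Promoters are shown because PU.1 is known to bind promoters of macrophage genes in the mouse. Of the 33 genes, 24 matched an entry in the RefSeq promoter table (GRCm38.p6), with 27 promoters of 250 bases before to 50 after the gene's start. The letters GAGGAA, the core of the PU.1 motif, were searched on both strands and occurred in 15 of the 24 genes (62.5%), against 31.3% of 27025 genes and 28.3% of 32851 promoters of the same length. The AP-1 letters TGANTCA occurred in 4 of the 24 (16.7%), against 8.97% of genes, and no AP-1 match overlaps a GAGGAA match in the 5 promoters printed. Those are the promoters of called genes that hold GAGGAA, plus Lgals3, which has none. Lgals3 is shown as the gene with the largest difference, a choice made after its values were seen. Of the other called genes, Mpeg1, Fcer1g and Gpnmb held no GAGGAA, and Csf1r and Ccl7 had no entry and were not searched. Capitals mark GAGGAA, or TTCCTC where it lies on the other strand. Lgals3 is at chr14:47373610-47373909 on the plus strand, Cd68 at chr11:69666121-69666420 on the minus strand, Mrc1 at chr2:14229164-14229463 on the plus strand, Ctss at chr3:95526536-95526835 on the plus strand and C1qc at chr4:136892865-136893164 on the minus strand.
Lgals3: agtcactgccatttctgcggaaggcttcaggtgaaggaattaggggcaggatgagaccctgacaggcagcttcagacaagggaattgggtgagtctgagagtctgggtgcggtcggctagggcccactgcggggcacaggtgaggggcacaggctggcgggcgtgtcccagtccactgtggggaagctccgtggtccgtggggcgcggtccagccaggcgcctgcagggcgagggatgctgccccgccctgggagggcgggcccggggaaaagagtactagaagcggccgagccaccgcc
Cd68: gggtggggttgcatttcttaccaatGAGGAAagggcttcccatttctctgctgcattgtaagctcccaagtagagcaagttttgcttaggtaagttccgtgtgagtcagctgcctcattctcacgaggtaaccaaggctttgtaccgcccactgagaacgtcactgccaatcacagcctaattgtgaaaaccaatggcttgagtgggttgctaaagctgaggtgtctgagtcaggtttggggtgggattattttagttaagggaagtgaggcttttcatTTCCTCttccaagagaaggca
Mrc1: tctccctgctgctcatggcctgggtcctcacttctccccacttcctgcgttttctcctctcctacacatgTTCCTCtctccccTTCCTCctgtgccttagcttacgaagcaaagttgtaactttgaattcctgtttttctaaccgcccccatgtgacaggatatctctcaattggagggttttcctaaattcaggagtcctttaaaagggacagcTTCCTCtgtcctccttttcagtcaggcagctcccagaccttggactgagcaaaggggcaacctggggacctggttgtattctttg
Ctss: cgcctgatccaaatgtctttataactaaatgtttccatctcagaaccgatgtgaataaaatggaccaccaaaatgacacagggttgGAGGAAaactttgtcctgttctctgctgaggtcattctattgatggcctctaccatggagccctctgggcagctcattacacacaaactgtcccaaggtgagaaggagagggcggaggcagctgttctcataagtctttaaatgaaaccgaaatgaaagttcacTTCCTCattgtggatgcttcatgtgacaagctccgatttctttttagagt
C1qc: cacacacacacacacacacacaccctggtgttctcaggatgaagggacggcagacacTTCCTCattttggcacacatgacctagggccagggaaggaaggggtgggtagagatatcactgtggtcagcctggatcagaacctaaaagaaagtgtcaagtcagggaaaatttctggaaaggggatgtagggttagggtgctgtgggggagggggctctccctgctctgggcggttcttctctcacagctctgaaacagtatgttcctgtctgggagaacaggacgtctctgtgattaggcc
Cd68 held 2 matches and Mrc1 held 3. A match is a run of letters, and binding was not measured.

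The 2 KO hearts of 10 weeks did not stand equally high. Replicate 1 was above replicate 2 for 29 of the 33 genes, where 49.1% of all genes had that order, and the median gap was 0.42. The WT hearts showed 26 of 33 in the same order (54.2% of all genes) with a median gap of 0.14. Relative to the mean of the WT hearts, the median over the genes was 0.71 in KO replicate 1 and 0.27 in KO replicate 2. For the resident genes it was 0.65 and 0.12, for the recruited genes 0.91 and 0.41, and for the general genes 0.96 and 0.58. For the 3 activated genes it was 0.56 and 0.75, both values being those of Gpnmb, while Lgals3 and Trem2 were higher in replicate 1.

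**Figure D3:**
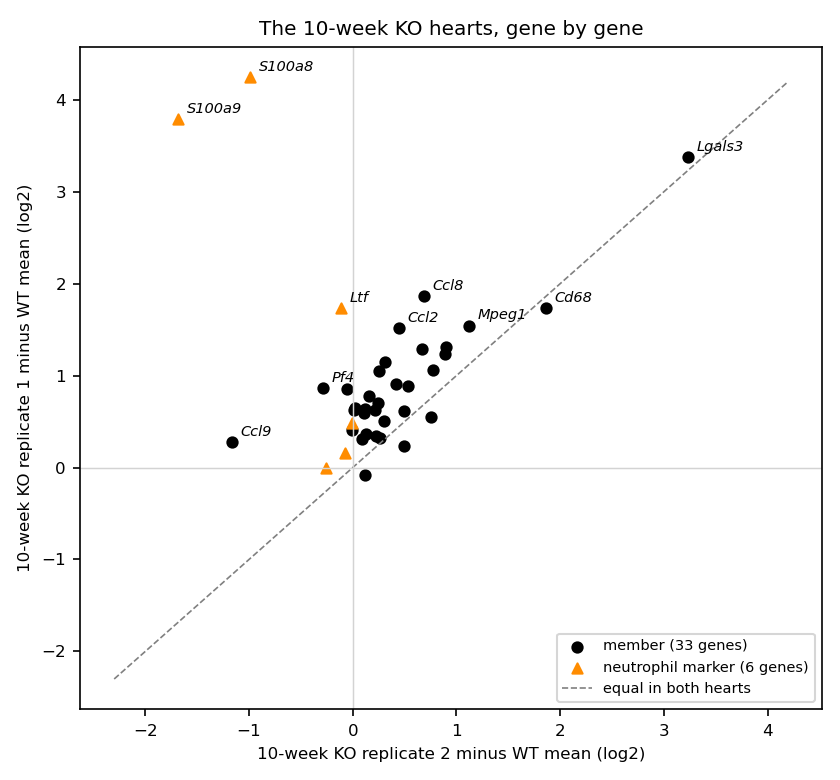
Each of the 33 genes (dots) and 6 neutrophil markers (triangles) in the 2 KO hearts of 10 weeks, as log2 level minus the mean of the 10-week WT hearts, replicate 2 across and replicate 1 up, with the dashed line where both are equal. Most dots lie above the line, Lgals3 and Cd68 lie near it, and S100a8 and S100a9 lie far above it.

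The same KO heart was high in neutrophil markers. Of 8 listed markers, 6 were measured and 0 were called, and their summed linear intensity was 3621 and 244 in the KO hearts against 453 and 316 in the WT hearts. Such a sum is carried by the brightest genes. The mean log2 of the 6 was 7.52 and 5.26 in the KO hearts against 5.98 and 5.59 in the WT hearts. For all 6 the KO and WT arrays overlapped. S100a8, a calcium-binding protein of neutrophils and monocytes, read 10.94 and 5.71 in KO hearts against 7.15 and 6.24 in WT hearts. The part of these cells in the 33 genes was not tested. Without KO replicate 1, 7 of the 33 genes were called higher and 1 lower, Ccl9 at -1.16 (limma adjusted p = 0.0188), and the median was 0.27. Without KO replicate 2, 16 were called and the median was 0.71. Ctss, C1qc and Ccl7 were not called without KO replicate 1, with 0.67, 0.53 and 0.41, nor without WT replicate 2. Gpnmb was not called without KO replicate 2, with 0.56. Lgals3, Cd68, Mpeg1, Csf1r, Mrc1 and Fcer1g were called under all 19 alternatives.

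Another array stood apart among the WT hearts. WT replicate 1 of 10 weeks lay at -43.3 on the second principal component, where the other 7 lay between -4.2 and 13.9, and it was high in liver and kidney genes, with a summed linear intensity of 5555 against 663 in WT replicate 2. The same sum was 277 and 395 in the 10-week KO hearts, 339 and 4516 in the 4-week KO hearts, and 1161 and 3200 in the 4-week WT hearts, so other arrays were high too. Without it, 13 of the 33 genes were called at 10 weeks. Of 5 fibroblast markers 4 were called higher in 10-week KO hearts (5.19% of all genes), such as Col1a1 at 2.05. Their median for 10 minus 4 weeks was 0.13 in KO hearts and -0.51 in WT hearts, where all 5 were negative and Col1a1 was called lower (-2.11). Of 7 cardiomyocyte markers 2 were called lower in 10-week KO hearts (6.89% of all genes), Ryr2 at -1.27 and Tnni3 at -0.52. The difference was negative for 4 of the 7 and positive for 3, with a median of -0.25. Ryr2 was not called under 3 of 19 alternatives, the mean of its probe sets among them, and Tnni3 under 7 of 19. The 4 atrial genes had a median of -1.19 at 10 weeks, with Sln called lower and Nppa higher. At 4 weeks their median was 1.302 and none was called. Both KO arrays of 4 weeks were above both WT arrays for all 4 (19.4% of all genes). The part of these tissues and cells in the macrophage genes was not tested.

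At 4 weeks 0 of the 33 genes were called by limma, where 0.0275% of all genes were called higher, and 1, Lgals3, had an unadjusted p under 0.05 (3.73% of all genes). The median was 0.04, with 21 positive and 12 negative. Both KO arrays were above both WT arrays for 9 genes (19.4% of all genes) and below them for 5 (17.5%). The resident genes had a median of -0.22 and 4 of the 5 were negative. Mrc1 read 8.58 and 8.52 in KO hearts against 8.70 and 8.89 in WT hearts. Lgals3 had the largest difference of the 33 genes, at 2.03 ± 0.26, or 4.07-fold. It was also the gene nearest to a call, with 7.37 and 8.33 in KO hearts against 5.78 and 5.88 in WT hearts (limma adjusted p = 0.0579). It was called without KO replicate 1 of 4 weeks (2.51, limma adjusted p = 0.00588) or without either 10-week WT array, and had an adjusted p of 0.643 and 0.631 without either 4-week WT array.

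**Figure D4:**
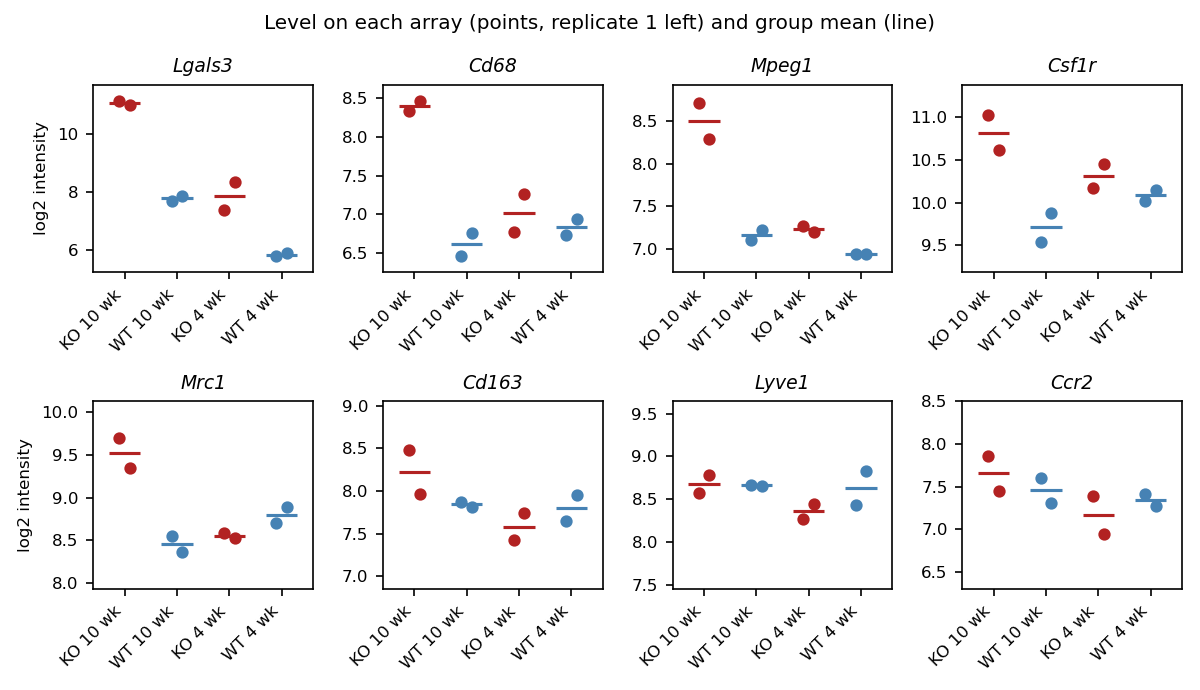
Log2 intensity of 8 genes on each array (points, replicate 1 on the left) with the group mean (line), in KO and WT hearts of 10 weeks and of 4 weeks. Lgals3 was high in the 10-week KO hearts at 11.15 and 11.01, Lyve1 lay between 8.27 and 8.83 on all 8 arrays, and each panel shows the gene's brightest probe set.

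Whether the KO minus WT difference itself changed between the ages was tested as a difference of differences, 10 weeks minus 4 weeks. It was called for 3 of the 33 genes, where 0.879% of all genes were called with that sign: Cd68 at 1.61 ± 0.26 (limma adjusted p = 0.0206), Mrc1 at 1.305 ± 0.21 (limma adjusted p = 0.0211) and Mpeg1 at 1.04 ± 0.21 (limma adjusted p = 0.0461). Each was larger at 10 weeks, Mrc1 having 1.06 at 10 weeks and -0.24 at 4 weeks. None of the 33 was called without KO replicate 1, WT replicate 1 or WT replicate 2 of 4 weeks, or without KO replicate 1 of 10 weeks. Lgals3 had 1.28 ± 0.36 and was not called (limma adjusted p = 0.121).

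Within KO hearts, 13 of the 33 genes were higher at 10 weeks than at 4 weeks (3.42% of all genes), and the difference was positive for all 33, with a median of 0.61. They included Lgals3 at 3.23, Ccl8 at 2.03, Cd68 at 1.39, Ctss at 1.32 and Mpeg1 at 1.27. The count was 5 without KO replicate 1 of either age, 3 without KO replicate 2 of 4 weeks and 20 without either 10-week WT array. In WT hearts 1 was higher at 10 weeks (0.0495% of all genes), Lgals3 at 1.95, which read 7.69 and 7.86 at 10 weeks against 5.78 and 5.88 at 4 weeks (limma adjusted p = 0.0281). It was 0 without either 4-week WT array or either 10-week KO array, and 3 without WT replicate 2 of 10 weeks. The KO count shares its 10-week arrays with the KO minus WT comparison, and between ages, age, litter and any day of processing cannot be told apart.

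Further genes of the myeloid pathways, listed with earlier results of these data known, numbered 132, of which 116 were measured. At 10 weeks 23 of the 116 were called higher, against 5.19% of all genes, and 3 lower, a smaller share than the 6.89% of all genes, with a median of 0.24, and at 4 weeks 0 were called. The calls numbered 14 without KO replicate 1 of 10 weeks and 15 to 17 without any 1 of the 4-week arrays. The myeloid receptors and signalling genes were called higher in 9 of 31 and were all positive, including the lectin receptor Clec4d at 1.44, Ms4a6d at 1.17, the nucleic acid sensor Tlr13 at 1.05 and the actin-bundling protein Lcp1 at 1.01. Clec4d was not called under 12 of 17 alternatives, Ms4a6d under 14 of 19 and Tlr13 under 9 of 17, and their differences were 0.62, 0.63 and 0.53 without KO replicate 1 of 10 weeks. Of the activated and lysosomal genes 5 of 16 were called, among them the cathepsins Ctsk at 1.23, Ctsl at 1.17 and Ctsb at 0.59 and the lipid carrier Apoe, which read 11.62 and 11.61 in KO hearts against 10.39 and 10.65 in WT hearts (1.09). Ctsb was not called under 12 of 19 alternatives, and Ctsl gave 0.21 (limma adjusted p = 0.405) when shared-sequence probe sets were dropped. The recruited-monocyte list had 3 of 9, Vcan at 2.14, Thbs1 at 1.70 and Cd44 at 1.54, which fibroblasts also express, and Cd44 was not called without KO replicate 1 or WT replicate 1 of 10 weeks. The mean of the probe sets of Vcan gave 0.71. Of the further resident genes 1 of 11 was called, the complement receptor Vsig4, which read 8.45 and 7.97 in KO hearts against 6.53 and 6.71 in WT hearts (1.59 ± 0.23, limma adjusted p = 0.0023). Folr2 and Timd4, other resident markers, differed by -0.59 and -0.47 and did not pass.

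The ligands of CSF1R did not differ beyond their error: Csf1 differed by -0.06 ± 0.16 and Il34 by -0.02 ± 0.15. None of the 8 colony-stimulating factor genes was called, and the smallest p-values were those of the receptor chains Csf2rb2 (0.58) and Csf2ra (0.84). Of 25 chemokines and receptors 3 were called higher (5.19% of all genes), Ccr1 at 1.40, Cxcl14 at 0.52 and Cxcl16 at 0.45. Called lower was 1 (6.89% of all genes), Ccrl2 at -0.94. Cxcl16 was not called under 13 of 19 alternatives and Cxcl14 under 10 of 19, most of them leaving out 1 array. The transcription factors had 2 of 8 called lower, Klf4 at -0.66 and Nr1h3 at -0.53, and both, like Ccrl2, were not called without either 10-week KO array. In the complement list 2 of 8 were called higher, the inhibitor Serping1 at 1.13 and the receptor C3ar1 at 0.94.

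Of 4 MHC class II genes 3 were called lower in KO hearts at 10 weeks, where 6.89% of all genes were called lower. The 3 were H2-Ab1 at -1.06, H2-Eb1 at -0.71 and Cd74 at -0.70, and H2-Aa had -0.23. H2-Ab1 read 7.61 and 7.70 in KO hearts against 9.08 and 8.35 in WT hearts. All 4 had both KO arrays below both WT arrays, as had 23.5% of all genes. Without KO replicate 1 of 10 weeks none of the 3 was called (limma adjusted p = 0.0648 for H2-Ab1, 0.163 for H2-Eb1 and 0.146 for Cd74). Cd74 and H2-Eb1 were also not called without either 4-week WT array, nor H2-Eb1 without KO replicate 2 or WT replicate 1 of 10 weeks.

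**Figure D5:**
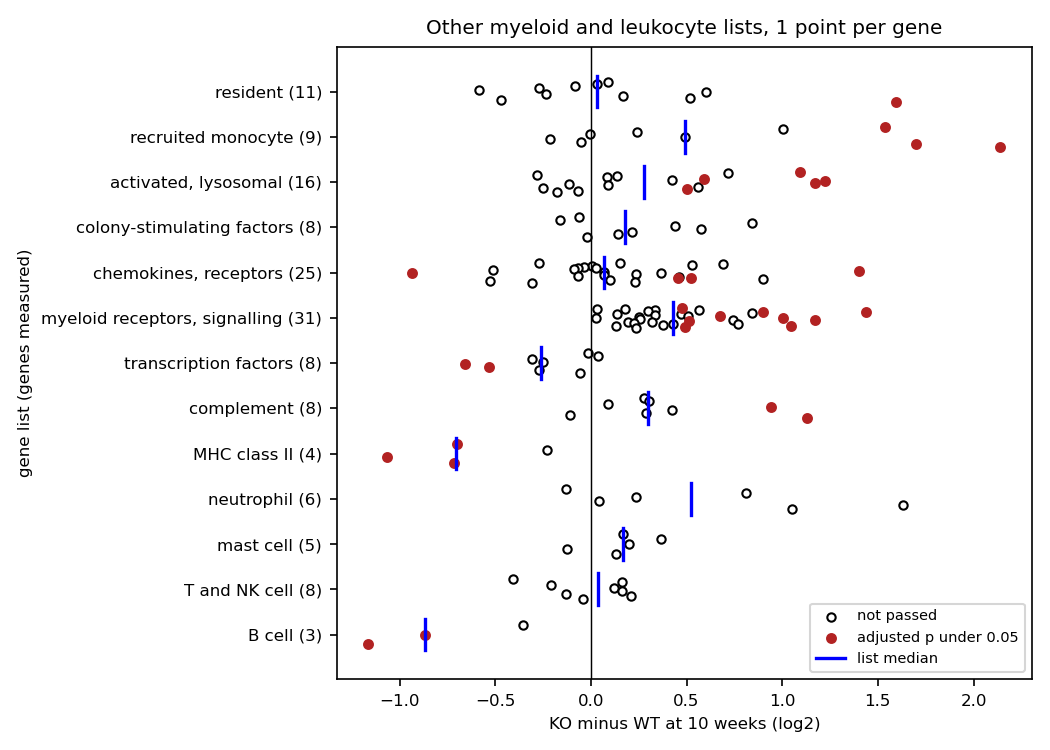
Difference KO minus WT at 10 weeks for 1 gene per point in 8 further myeloid lists and 5 leukocyte marker lists, in log2, filled where the limma adjusted p was under 0.05, with the list median as a bar. The myeloid receptors lie all right of 0, and the MHC class II and B cell genes all left of it.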

How the data were processed

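Total RNA of 8 hearts was extracted with TRIzol and hybridised to 1 Affymetrix array each, per the labels' protocols. The submitters' processing notes name GCOS 1.3 and RMA as the tools the authors used for the deposited intensity values, without order or RMA version. They are linear, with array medians of 34.3 to 37.3, and log2 was taken here. 64 control probe sets were left out of 45101, and for each gene the probe set with the highest mean was used. Of the rest 34945 named 1 gene, 932 several and 9160 none, and 34741 matched RefSeq by Entrez ID.

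All 8 arrays entered a single linear model of 4 group means, run with eBayes in limma 3.58.1 under R 4.3.3, with 4 residual degrees of freedom, two-sided tests and Benjamini-Hochberg adjustment over all genes. The model was also run on simulated data in which noise was independent between genes. Shifts shared by many genes of an array were not part of that run. The median SE was 0.145, and 2 arrays per group limit the precision. The labels call the samples separate mice.

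The members and lists were chosen with earlier results of these data known. By rule all 33 genes were named, and of each further list up to 4 called genes with the largest difference, or, in a list without calls, the 2 of smallest p. Csf1, Il34, Folr2, Timd4, H2-Aa and the single array values were picked after their values were seen. Alternatives were another choice of probe sets, filters on dim genes, other normalizations, trend and robust variance, array weights, only the groups compared, a replicate block, and each array left out. The array weights were equal for the 2 arrays of each group, so that setting could not give less weight to a single odd array. The targeted gene is not reported here. 16 listed myeloid genes were not analysed here.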

Additional observations from a re-analysis of the deposited data

Results flagged for a closer look

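The KO minus WT difference changed between the ages by the interaction test in limma for 3 of the 33 genes, with 2 arrays per group, where 0.879% of all genes were called with that sign. The count was 0 without KO replicate 1, WT replicate 1 or WT replicate 2 of 4 weeks, or without KO replicate 1 of 10 weeks. For Cd68 the difference at 10 weeks exceeded that at 4 weeks by 1.61 (1.80 at 10 weeks and 0.18 at 4 weeks, adjusted p = 0.0206). For Mrc1 it exceeded it by 1.305 (1.06 at 10 weeks and -0.24 at 4 weeks, adjusted p = 0.0211). For Mpeg1 it exceeded it by 1.04 (1.33 at 10 weeks and 0.29 at 4 weeks, adjusted p = 0.0461). Age, litter and any day of processing cannot be told apart here.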

How the results depend on the processing

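The count of the 33 genes called at 10 weeks, 10, was 6 with only the groups of the comparison, and 8 to 16 when each array was left out, with medians of 0.27 to 0.71. At 4 weeks the count of 0 was 1, Lgals3, with either filter on dim genes (the median level, or a mean log2 of 6), quantile normalization again, trend and robust settings, array weights or the replicate block, and 0 to 1 with an array left out. The difference between the ages, 3 genes, was 7 with the block and 0 to 5 with an array left out. Between ages in WT hearts, 1 was 0 with arrays centred on their medians, 2 with the block and 0 to 3 with an array left out; in KO hearts 13 was 23 with the block and 3 to 20. The further myeloid lists, 26 calls at 10 weeks, had 13 with array weights, 12 with only the groups compared and 14 to 31 with an array left out.

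Replicate numbers correlated between KO and WT at 0.302 (4 weeks) and 0.230 (10 weeks) in their deviations, but the labels do not pair the mice, so the numbers were not treated as pairs. With the replicate block, 15 of the 33 genes were called at 10 weeks. Of the values of single genes, 1162 kept their side of the threshold under an alternative, 169 lost the call and 43 gained one. The 1162 include uncalled values whose sign changed, such as Pf4 at 10 weeks, 0.29 as reported and as low as -0.28 with an array left out. The 1 value that reversed with a call was S100a9 at 10 weeks, at -1.68 without KO replicate 1 and 3.79 without KO replicate 2. Where leaving out an array left 1 in a group, that array was assumed to vary like the others. The cause of each change was not tested.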

Other observations

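Lymphocyte markers gave a different picture from the macrophage genes in 10-week hearts. Of 3 measured B cell markers 2 were called lower in KO hearts by limma, where 6.89% of all genes were called lower. The 2 were Ms4a1 at -1.16 and the B cell receptor chain Cd79b at -0.87. Ms4a1 read 4.46 and 4.38 in KO hearts against 5.03 and 6.13 in WT hearts. With the mean of its probe sets Ms4a1 was not called. Of 8 T and NK cell markers 0 were called, with a median of 0.04, and of 5 mast cell and 5 dendritic cell markers 0 were called. At 4 weeks the 3 B cell markers had a median of -0.45 and none was called. Both KO arrays were below both WT arrays for all 3 there (17.5% of all genes). In WT hearts all 4 MHC class II genes were higher on average at 10 weeks than at 4 weeks, with a median of 1.16. Of these 2 were called, where 0.0495% of all genes were called higher. In KO hearts all 4 were higher on average too, with a median of 0.29 and 1 called (3.42% of all genes). The difference of differences was negative for all 4 and was called for 0. Ms4a1 and Cd79b were not called without KO replicate 2 of 10 weeks or without either 4-week WT array, nor Ms4a1 without KO replicate 1 or Cd79b without WT replicate 2 of 10 weeks.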
